A study of Mus musculus with 9 samples.

Results

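Kit, Kitl, Ano1 and Etv1, genes that mark or build the interstitial cells of Cajal of the gut, were followed in RNA from the terminal colon of mouse embryos. A probe set, the group of probes that reads 1 transcript on the array, was taken where the platform's gene table names a single member gene. That rule found 3 of the 4 genes, with 2 probe sets for Kit, 4 for Kitl and 2 for Ano1, or 8 of the 45037 probe sets tested and 3 of the 18193 genes that have a probe set of their own. The 3 probe sets that list Etv1 also list Gm5454, a pseudogene at chr13:103356181-103358567 of GRCm38.p6, and so did not meet the rule. The accessions of 2 of them are those of Etv1 in the RefSeq table, and these probe sets are described apart as the Etv1/Gm5454 probe sets.

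There were 3 arrays each of Ednrb null, of Ednrb NCC null and of wild type colon. Ednrb null embryos carried a lacZ allele in both copies of Ednrb, the endothelin receptor B gene. Ednrb NCC null embryos, titled Ednrb-FLEX, lacked Ednrb in the cells the labels call NCC, and neither the driver of that deletion nor the strain is given in the sources used here. No treatment or allele shared by all groups is given, and the age is embryonic day 14 in the sample labels and 14.5 in the series text. The labels do not say whether an array holds 1 embryo or a pool, so the p-values measure the spread between these arrays, which may be technical. Some arrays gave signal both for Xist, a female RNA, and for Y-linked genes. The log2 levels were 13.65 and 8.03 on Ednrb null 29 and 13.67 and 7.82 on wild type 1D. Whether such arrays hold embryos of both sexes was not tested.

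Interstitial cells of Cajal are the pacemaker cells of gut muscle and relay signals from enteric nerves to smooth muscle. They come from gut mesenchyme and not from the neural crest, the source of enteric neurons and glia. KIT is the receptor tyrosine kinase that their development and upkeep depend on, and KITL, or stem cell factor, is its ligand. ANO1 is the calcium-activated chloride channel that carries the pacemaker current, and ETV1 is an ETS transcription factor of the PEA3 subfamily that these cells need. In the embryo, Kit also marks common precursors of these cells and of smooth muscle, so its RNA does not mark mature pacemaker cells alone at this age.

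In whole tissue, fewer cells of a type and less RNA per cell cannot be told apart. The targeted gene differed by label as follows. The brightest Ednrb probe set, 1437347_at, had log2 intensities of 9.23, 9.40 and 8.77 in Ednrb null arrays, 11.15, 11.32 and 11.04 in Ednrb NCC null arrays and 11.08, 10.95 and 11.05 in wild type arrays. It fell by 1.89 on the log2 scale in Ednrb null against wild type (adjusted p = 2.9e-05, limma) and differed by 0.15 in Ednrb NCC null (adjusted p = 0.696). Whether its probes lie in the altered stretch of the gene is not given, so it checks the lacZ label only by its drop. Of 6 hindgut position genes listed, 5 were measured, among them Cdx2 and Hoxd13. Their mean log2 level was between 7.85 and 8.41 on the 9 arrays, with none below the first quartile of probe sets. The striated muscle list and the skin and nerve list also had none below it, so this level does not tell colon from other tissue. Median intensity was 111.3 to 115.2 on all arrays, and Pearson r across probe sets was 0.9932 to 0.9967 within groups and 0.9881 to 0.9928 between them. Wild type 1C stood apart with a log2 Xist intensity of 6.70, against 11.60 to 14.07 on the other 8 arrays. Wild type 1B stood apart with a mean of 7.26 over 10 mesothelial markers, against 8.44 to 9.13 on the others. The log2 ratio of the 3' to the 5' Actb control, a sign of RNA quality, was 0.80 to 0.90 in Ednrb null arrays, 1.03 to 1.40 in Ednrb NCC null arrays and 1.08 to 1.32 in wild type arrays, so Ednrb null lay below both other groups.

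The stretches around the starts of Kit, Ano1 and Kitl are shown because Kit and Ano1 RNA followed each other over the 9 arrays (Pearson r = 0.91). That of the ligand gene Kitl did not over the same arrays (r = 0.07 with Kit and 0.15 with Ano1). With group means removed, r with Kitl was 0.67 for Kit and 0.81 for Ano1, so the contrast holds only across the groups. They run from 250 bases before to 50 bases after a RefSeq start in GRCm38.p6, and the capitals mark GGAA, the core that ETS factors such as ETV1 recognise, or its reverse complement TTCC. The Kit stretch is chr5:75574737-75575036 on the plus strand, from the first of the starts listed for the gene. Ano1 is read from the minus strand at chr7:144738524-144738823, within the gene's span of chr7:144588549-144752026. For Kitl the stretch is chr10:100015571-100015870 on the plus strand, and the gene spans chr10:100015615-100100416.
Kit: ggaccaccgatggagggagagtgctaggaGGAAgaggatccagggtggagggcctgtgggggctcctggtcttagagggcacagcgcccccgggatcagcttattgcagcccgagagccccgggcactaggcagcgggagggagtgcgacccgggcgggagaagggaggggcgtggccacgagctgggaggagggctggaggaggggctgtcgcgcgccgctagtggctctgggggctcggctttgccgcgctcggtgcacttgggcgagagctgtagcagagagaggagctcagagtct
Ano1: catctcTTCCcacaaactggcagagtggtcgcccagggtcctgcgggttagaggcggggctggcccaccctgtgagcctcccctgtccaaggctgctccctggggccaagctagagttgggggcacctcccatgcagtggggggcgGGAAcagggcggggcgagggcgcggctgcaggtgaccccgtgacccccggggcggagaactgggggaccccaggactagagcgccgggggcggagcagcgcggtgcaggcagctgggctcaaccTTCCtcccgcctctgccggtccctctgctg
Kitl: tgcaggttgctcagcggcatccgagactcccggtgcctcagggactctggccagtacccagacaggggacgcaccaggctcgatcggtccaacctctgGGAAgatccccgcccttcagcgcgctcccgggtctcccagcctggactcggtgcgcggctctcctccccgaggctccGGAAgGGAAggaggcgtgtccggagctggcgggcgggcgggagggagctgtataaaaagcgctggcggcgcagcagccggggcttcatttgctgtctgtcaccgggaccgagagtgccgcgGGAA
The motif, searched on both strands, occurred 1 time in the Kit stretch, 3 times in Ano1 and 4 times in Kitl, where 1 match lies within the longer CCGGAA. In either direction GGAA is common, occurring in 96.0% of the 32851 promoters of this length with a median of 3 matches, and CCGGAA in 14.9%. The short match therefore does not set these genes apart from other promoters.

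None of the 8 member probe sets passed an adjusted p under 0.05 (limma, Benjamini-Hochberg over 45037 probe sets) in any of the 3 comparisons. Over all probe sets, 5.03% were called in Ednrb null against wild type, and 3.58% in Ednrb NCC null against wild type, while Ednrb null against Ednrb NCC null gave 4.41%. At an unadjusted p under 0.05 there were 4 of 8 in Ednrb null against wild type (both Kit and both Ano1 probe sets, each higher in Ednrb null), 1 in Ednrb NCC null against wild type, a Kit probe set, and 2 in Ednrb null against Ednrb NCC null, of Kit and Kitl. The same limit was met by 17.3%, 17.0% and 17.3% of all probe sets in these comparisons. The groups' arrays did not overlap for 4, 0 and 2 of the 8 in the same comparisons, while over all probe sets this was so for 20.7%, 19.3% and 21.3%. The 4 in Ednrb null against wild type were both Kit probe sets, higher in Ednrb null, and 2 of Kitl, lower in it.

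**Figure D1:**
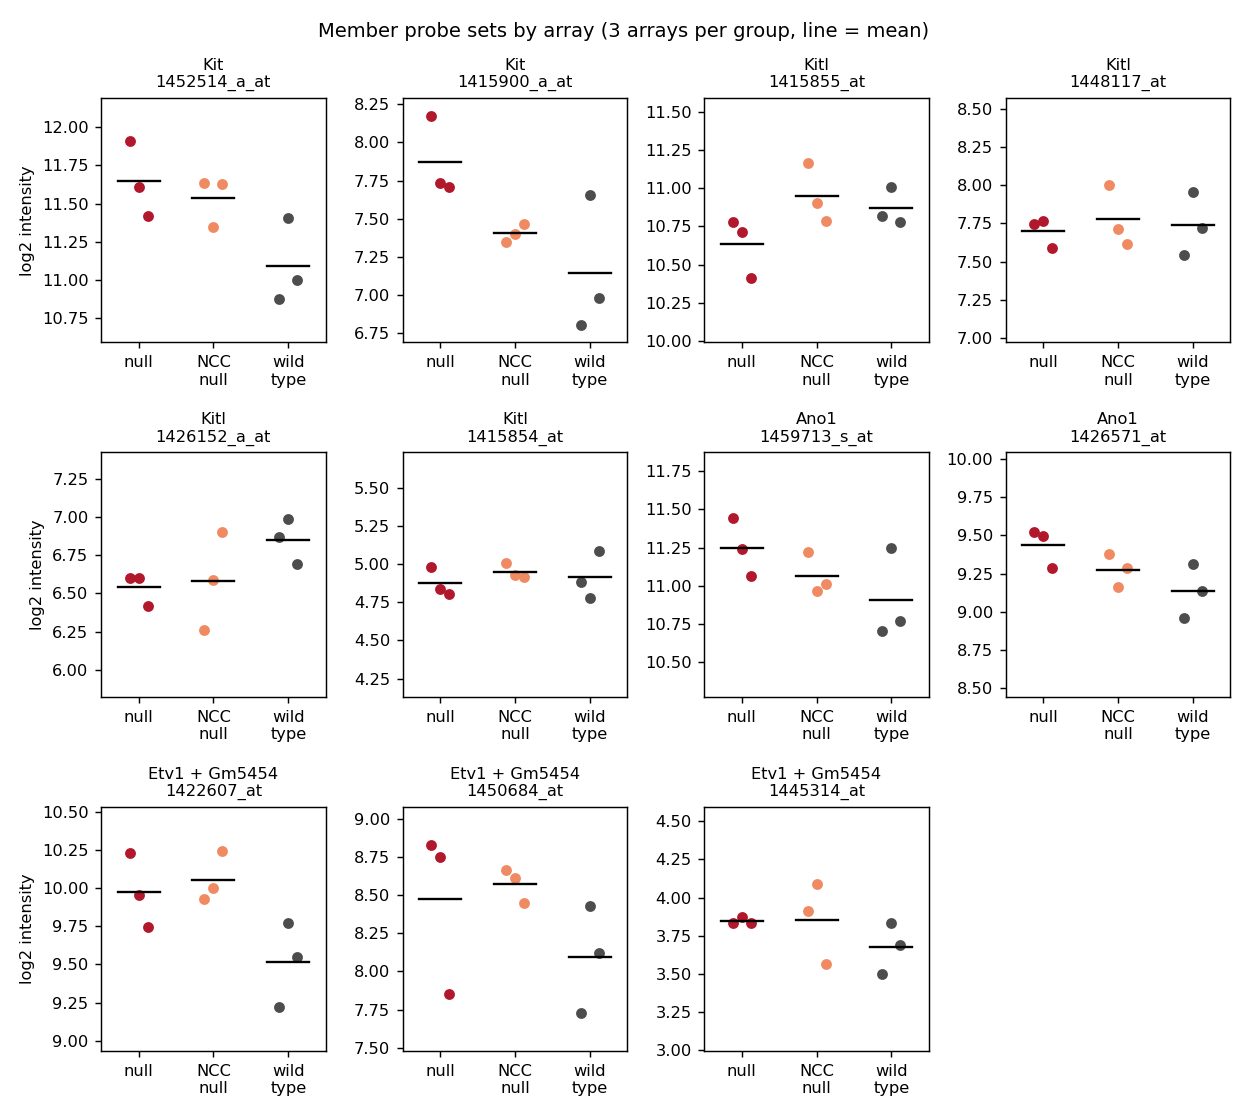
Log2 intensity of the 11 probe sets on each of the 9 arrays (points) with the mean of the 3 arrays of a group (line), with Ednrb null on the left, Ednrb NCC null in the middle and wild type on the right. Both Kit probe sets have all Ednrb null points above all wild type points, wild type 1C is the highest wild type point for Kit, Ano1 and the Etv1/Gm5454 probe sets, and Kitl shows no such upward shift.

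The receptor Kit, at chr5:75574987-75656722, was the member with the lowest adjusted p-values in Ednrb null. Its brightest probe set, 1452514_a_at, had log2 intensities of 11.91, 11.61 and 11.42 in Ednrb null 29, 37 and 41, of 11.63, 11.35 and 11.63 in Ednrb NCC null 2, 5 and 6, and of 10.87, 11.40 and 11.00 in wild type 1B, 1C and 1D. Every Ednrb null array lay above every wild type array, narrowly so for Ednrb null 41 against wild type 1C, and Ednrb NCC null 5 lay below wild type 1C. Means were 11.65 ± 0.25 in Ednrb null arrays, 11.53 ± 0.16 in Ednrb NCC null arrays and 11.09 ± 0.28 in wild type arrays (SD, n = 3 each).

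On this probe set Kit differed by 0.55 on the log2 scale between Ednrb null and wild type, or 1.47-fold (95% confidence interval 1.15 to 1.87), with an unadjusted p of 0.00518 and an adjusted p of 0.0803 from limma. In Ednrb NCC null against wild type the difference was 0.44, or 1.36-fold (interval 1.07 to 1.73, limma adjusted p = 0.175). Between Ednrb null and Ednrb NCC null it was 0.11, with an interval of -0.24 to 0.46 (limma adjusted p = 0.801). The means ran from Ednrb null at the top through Ednrb NCC null to wild type, and neighbours in it overlapped.

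The dimmer Kit probe set, 1415900_a_at, read 8.18, 7.73 and 7.71 in Ednrb null arrays, 7.35, 7.40 and 7.47 in Ednrb NCC null arrays and 6.81, 7.65 and 6.98 in wild type arrays. It differed by 0.72 between Ednrb null and wild type, or 1.65-fold (interval 1.22 to 2.23, limma adjusted p = 0.0651), without overlap. In Ednrb NCC null against wild type it differed by 0.26 (adjusted p = 0.585), within the spread, since wild type 1C lay above all 3 Ednrb NCC null arrays. Here Ednrb null and Ednrb NCC null did not overlap either, with a difference of 0.47 (interval 0.03 to 0.90, adjusted p = 0.25). The probe sets correlated at r = 0.88 over the 9 arrays and placed Ednrb NCC null differently, close to Ednrb null on the brighter and closer to wild type on the dimmer.

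Kitl, the ligand at chr10:100015615-100100416, did not share this order. Its brightest probe set, 1415855_at, read 10.78, 10.72 and 10.41 in Ednrb null arrays, 11.17, 10.90 and 10.79 in Ednrb NCC null arrays and 10.82, 11.01 and 10.78 in wild type arrays. The Ednrb null arrays lay just below both other groups, the closest pair being Ednrb null 29 and wild type 1D, which both round to 10.78. Its difference was -0.23 in Ednrb null against wild type (interval -0.51 to 0.05, limma adjusted p = 0.392) and 0.08 in Ednrb NCC null against wild type (interval -0.20 to 0.37, adjusted p = 0.813). In Ednrb null against Ednrb NCC null it was -0.32 (interval -0.60 to -0.04, unadjusted p = 0.03, limma adjusted p = 0.224).

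Only 1 of the other Kitl probe sets put Ednrb null below wild type without overlap. Probe set 1448117_at averaged 7.70 ± 0.10 in Ednrb null arrays, 7.78 ± 0.20 in Ednrb NCC null arrays and 7.74 ± 0.21 in wild type arrays (SD, n = 3 each), and 1415854_at, which is below the first quartile of all probe sets, lay between 4.78 and 5.08 on every array. Probe set 1426152_a_at read 6.60, 6.60 and 6.42 in Ednrb null arrays, 6.26, 6.59 and 6.90 in Ednrb NCC null arrays and 6.87, 6.98 and 6.69 in wild type arrays. Its differences from wild type were -0.31 in Ednrb null (limma adjusted p = 0.316, arrays not overlapping) and -0.26 in Ednrb NCC null (adjusted p = 0.414, overlapping). The brightest pair of Kitl probe sets correlated at r = 0.75 over the 9 arrays and the other pairs at -0.30 to 0.32, so the Kitl readings disagree with each other more than those of Kit or Ano1.

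The channel gene Ano1, at chr7:144588549-144752026, had its highest value on Ednrb null 29, as Kit did. Probe set 1459713_s_at read 11.44, 11.24 and 11.07 in Ednrb null arrays, 11.22, 10.96 and 11.01 in Ednrb NCC null arrays and 10.70, 11.25 and 10.77 in wild type arrays. Wild type 1C lay among the Ednrb null arrays, while the other 2 wild type arrays lay below all mutant arrays. Its difference was 0.34 in Ednrb null against wild type, or 1.27-fold (interval 1.01 to 1.59, limma adjusted p = 0.27), and 0.16 in Ednrb NCC null against wild type (interval -0.17 to 0.49, adjusted p = 0.677). Between Ednrb null and Ednrb NCC null it was 0.18 (interval -0.15 to 0.51, adjusted p = 0.615).

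Probe set 1426571_at of Ano1 read 9.52, 9.49 and 9.29 in Ednrb null arrays, 9.38, 9.16 and 9.29 in Ednrb NCC null arrays and 8.96, 9.31 and 9.13 in wild type arrays. It gave 0.30, 0.14 and 0.16 in the same 3 comparisons (limma adjusted p = 0.181, 0.603 and 0.538) and correlated with the brighter one at r = 0.94. Both Ano1 probe sets thus gave the same order of means as Kit, with overlapping groups throughout.

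For the transcription factor Etv1, at chr12:38780082-38870483, the brightest Etv1/Gm5454 probe set was 1422607_at. It read 10.23, 9.95 and 9.75 in Ednrb null arrays, 9.93, 10.00 and 10.24 in Ednrb NCC null arrays and 9.22, 9.77 and 9.55 in wild type arrays. All Ednrb NCC null arrays lay above all wild type arrays, and Ednrb null 41 lay just below wild type 1C. The difference was 0.54 in Ednrb NCC null against wild type, or 1.46-fold (interval 1.14 to 1.86, limma adjusted p = 0.0948), and 0.46 in Ednrb null against wild type, or 1.38-fold (interval 1.08 to 1.76, adjusted p = 0.145). Between Ednrb null and Ednrb NCC null it was -0.08 (interval -0.43 to 0.27, adjusted p = 0.867).

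Probe set 1450684_at read 8.82, 8.75 and 7.85 in Ednrb null arrays, 8.67, 8.61 and 8.44 in Ednrb NCC null arrays and 7.73, 8.43 and 8.12 in wild type arrays, with differences from wild type of 0.38 and 0.48 in the same order of groups (limma adjusted p = 0.469 and 0.351). Ednrb null 41 was far below the other 2 Ednrb null arrays here. The last, 1445314_at, was dim at 3.50 to 4.09 on all arrays. As none of the 3 tells Etv1 from Gm5454, these values hold for the pair.

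**Figure D2:**
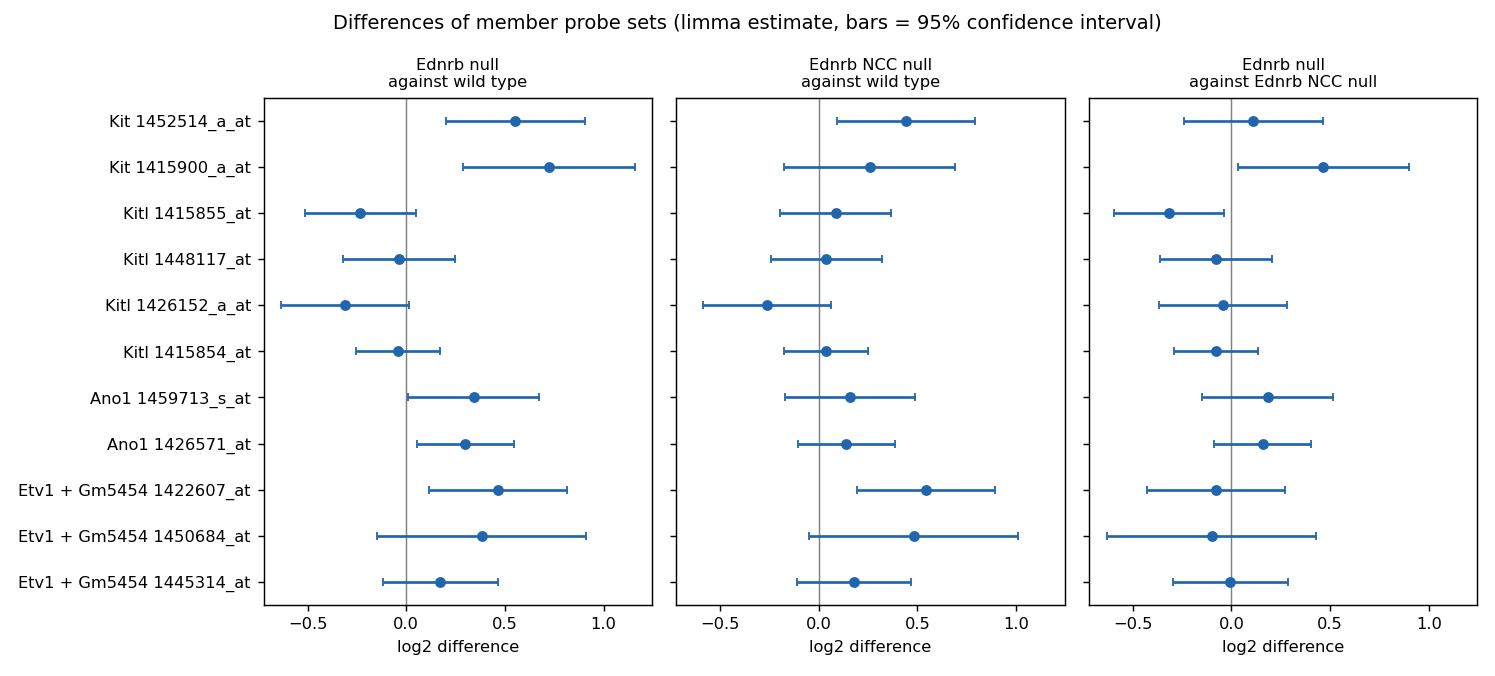
Log2 differences of the 11 probe sets (points, limma estimates) with 95% confidence intervals (bars) with each mutant set against wild type in the first panels and Ednrb null set against Ednrb NCC null in the last. Kit, Ano1 and Etv1/Gm5454 points lie above 0 in both comparisons with wild type, the 4 Kitl points lie below 0 wherever Ednrb null is the group compared and on either side of 0 in Ednrb NCC null against wild type, and no probe set had an adjusted p under 0.05.

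The wild type arrays differed among themselves, and leaving out 1 of them gave Kit a call. Without wild type 1C, the array low in Xist, Kit differed by 0.71 between Ednrb null and wild type (limma adjusted p = 0.0213) and Ano1 by 0.51 (adjusted p = 0.0465), and 3 of the 8 member probe sets were called, against 5.24% of all probe sets in that fit. Leaving out any other array gave no member call, and Kit then ranged from 0.42 without Ednrb null 29 to 0.67 without Ednrb null 41. Array weights, which let noisier arrays count for less, also gave Kit a call (0.64, adjusted p = 0.0372). The largest weight, 2.302, went to Ednrb null 29, the array highest in Kit, and wild type 1C had 1.139. Without Ednrb null 29 the adjusted p of Kit from limma was 0.258. Mesothelial markers had a mean log2 level of 8.64 to 8.81 in Ednrb null arrays and 8.94 to 9.13 in Ednrb NCC null arrays. In wild type 1B, 1C and 1D it was 7.26, 8.67 and 8.44, so 1C lay among the Ednrb null arrays and 1B far below all others. Of the 10 markers, 1 was called in Ednrb NCC null against wild type (Msln, higher) and 0 in Ednrb null, against 3.90% and 4.79% of all genes. With that level as a covariate, Kit differed by 0.36 in Ednrb null against wild type (adjusted p = 0.485) and by 0.16 in Ednrb NCC null (adjusted p = 0.898). Leaving out wild type 1B, with no covariate, gave Kit 0.44 and 0.33 (limma adjusted p = 0.279 and 0.456). The mesothelial covariate gave 0.17 for Ano1 and 0.22 for Etv1/Gm5454 in Ednrb null, and -0.09 for Ano1 and 0.18 for Etv1/Gm5454 in Ednrb NCC null, so the direction of Ano1 turned there. In a fit that held the Actb ratio, the differences between Ednrb null and wild type were 0.54 for Kit, 0.31 for Ano1 and 0.23 for Etv1/Gm5454 (adjusted p = 0.544, 0.776 and 0.851). Both covariates run with genotype. Ednrb NCC null lay above all other arrays in mesothelial level, and Ednrb null lay below all others in the Actb ratio. For every gene fitted with them, the part of the covariate and that of the genotype cannot be told apart.

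**Figure D3:**
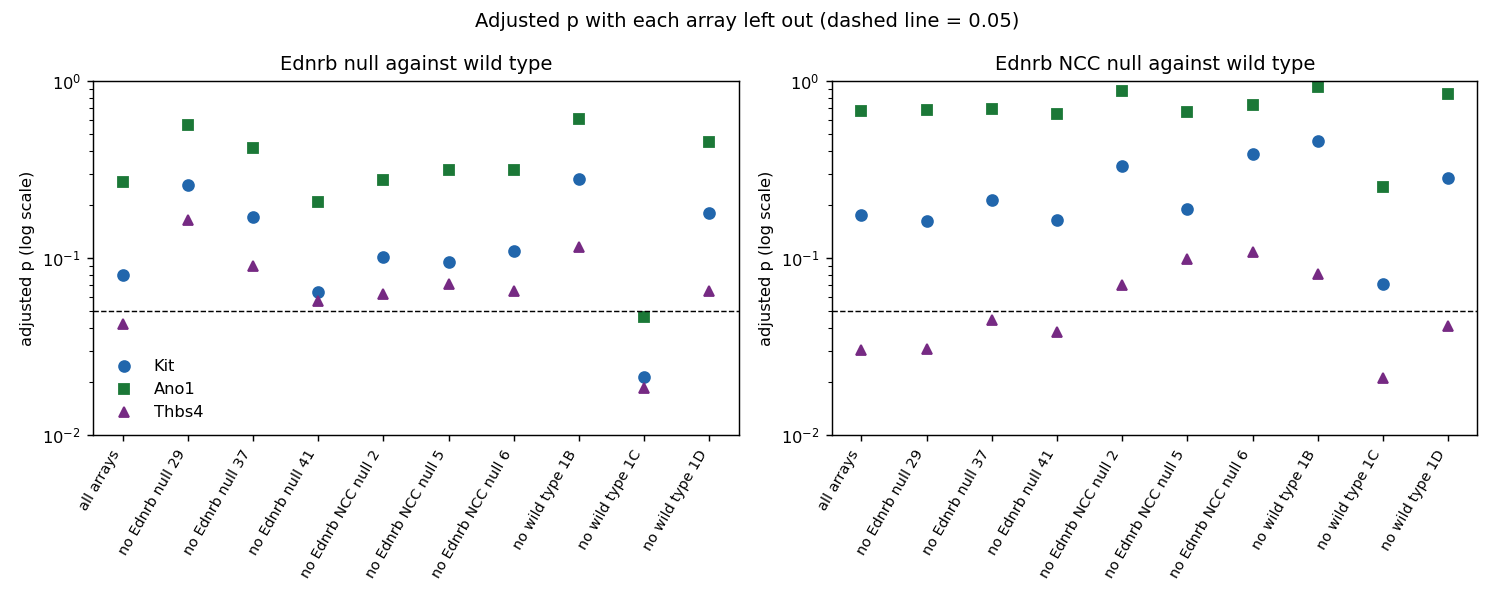
Adjusted p (log axis, dashed line at 0.05) of the brightest Kit, Ano1 and Thbs4 probe sets with all arrays and with each array left out, with Ednrb null against wild type on the left and Ednrb NCC null on the right. Kit and Ano1 pass the line only in Ednrb null against wild type without wild type 1C, and Thbs4 crosses it upward when any 1 of several arrays is left out.

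Across the 9 arrays Kit and Ano1 followed each other, and Kitl followed neither. For the brightest probe sets, Kit and Ano1 had Pearson r = 0.91 (exact permutation p = 0.000788, adjusted over 6 pairs 0.00236) and Spearman rho = 0.75 (exact permutation p = 0.0255, adjusted 0.111). Without Ednrb null 29 and wild type 1B, the arrays farthest from the median of Kit, r was 0.77, and with group means removed it was 0.93. Kit and Etv1/Gm5454 had r = 0.91 (exact permutation p = 0.00078, adjusted 0.00236), rho = 0.72 (exact permutation p = 0.0369, adjusted 0.111), 0.77 without the same arrays and 0.84 with group means removed. Ano1 and Etv1/Gm5454 had r = 0.71 (exact permutation p = 0.0313, adjusted 0.0626) and rho = 0.47 (exact permutation p = 0.213, adjusted 0.425), and r was 0.28 without those arrays and 0.69 with group means removed, so the relation over all arrays is weak without that pair. Kitl had r = 0.07 with Kit, 0.15 with Ano1 and 0.08 with Etv1/Gm5454 (exact permutation p = 0.869, 0.71 and 0.845). With group means removed, r with Kitl was 0.67 for Kit, 0.81 for Ano1 and 0.32 for Etv1/Gm5454, which is given without a test. Of the other 45036 probe sets, 63 (0.14%) followed the Kit probe set at least as closely as Ano1 did, 65 (0.144%) at least as closely as Etv1/Gm5454, and 23013 (51.1%) at least as closely as Kitl. Over the 6 mutant arrays alone, r was 0.87 for Kit and Ano1, 0.65 for Kit and Etv1/Gm5454 and 0.27 for Ano1 and Etv1/Gm5454. The permutations moved arrays freely across the genotype groups, so their p-values also count differences between groups. The points share the tissue, the genotype groups and the processing, and the correlations describe these arrays alone.

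**Figure D4:**
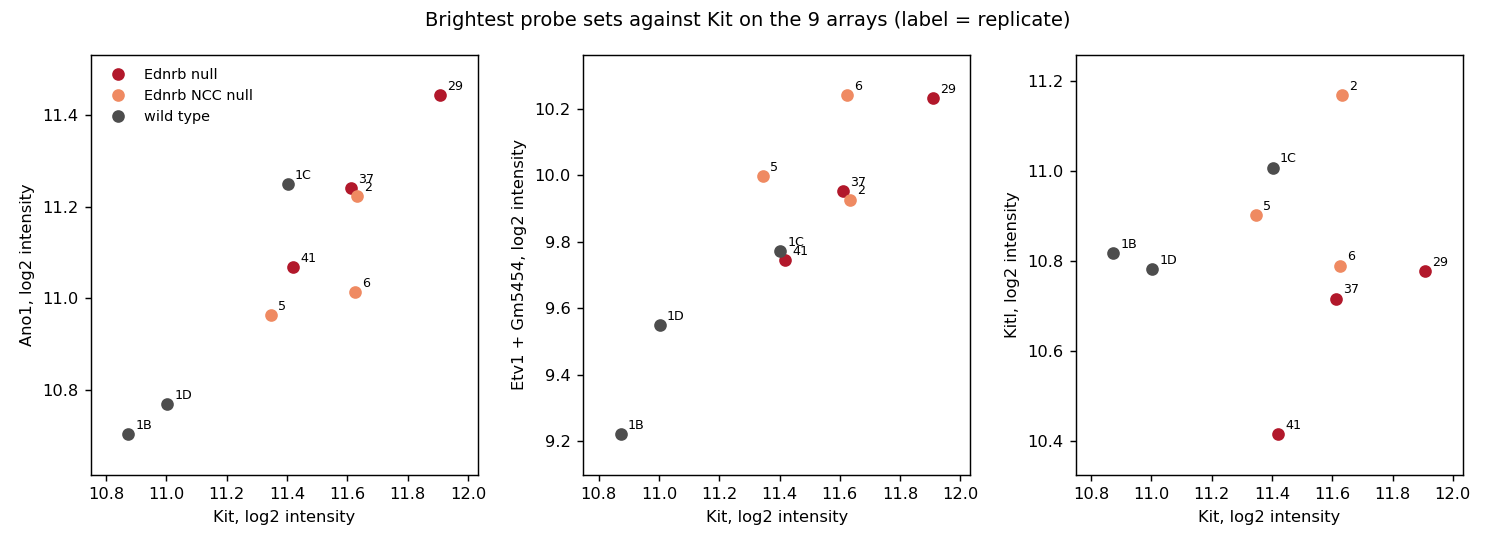
Log2 intensity of the brightest Ano1, Etv1/Gm5454 and Kitl probe sets (vertical axes) against the brightest Kit probe set (horizontal axis), 1 point per array with its replicate name. Ano1 and Etv1/Gm5454 climb with Kit (r = 0.91 each), with wild type 1B and 1D at the low end and wild type 1C among the mutant arrays, whereas Kitl does not (r = 0.07).

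The genes most like each member were taken by Pearson r over the 9 arrays. They came from 10831 candidate probe sets naming 1 gene, with a mean log2 of at least 6 and a range of at least 0.5. That count was made before the members' own probe sets and further probe sets of the same gene were left out. Nearest to Kit were Ryr2, an intracellular calcium release channel (0.9553), Myo6, an unconventional myosin (0.955), and Mab21l2 (0.9544). Ano1 was followed by Myo6 (0.975), Lrig1, a membrane protein that restrains growth factor receptors (0.9647, by a probe set other than its brightest), and Wdr77 (0.9618). Etv1/Gm5454 was followed by Thbs4, a matrix glycoprotein (0.9631), Tgm2, a transglutaminase (0.962), and Shmt1, an enzyme of one-carbon metabolism (0.9513). Kitl was followed by Stk24 (0.9506), Lsm14a (0.9431) and Shisa2 (0.9355), none of which is among the nearest 3 of another member.

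Among 25 other genes reported in interstitial cells of Cajal, 23 had a probe set naming them alone and the other 2 were not analysed here. In each comparison with wild type, 1 of the 23 was called higher and none lower, and none was called between the mutants. By the brightest probe set of each gene, the background was 4.79% of 18193 genes called in Ednrb null against wild type, and 3.90% in Ednrb NCC null, with 5.29% called between the mutants. The median difference of the 23 was -0.04, -0.07 and 0.03 in these comparisons, against 0.04, 0.02 and 0.01 over all genes.

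The gene called in both was Thbs4, which encodes a thrombospondin of the extracellular matrix. It read 8.63, 8.30 and 8.22 in Ednrb null arrays, 8.43, 8.47 and 8.51 in Ednrb NCC null arrays and 7.37, 8.01 and 7.86 in wild type arrays, with all mutant arrays above all wild type arrays. It rose by 0.64 in Ednrb null against wild type (interval 0.29 to 0.98, limma adjusted p = 0.0423) and by 0.72 in Ednrb NCC null (interval 0.38 to 1.07, adjusted p = 0.0302). In Ednrb null the call was lost with any 1 array left out other than wild type 1C (adjusted p = 0.0575 to 0.164), and in Ednrb NCC null without wild type 1B or any 1 of its own arrays (0.0708 to 0.108). With the mesothelial level as a covariate its values were 0.36 for Ednrb null (adjusted p = 0.266) and 0.30 for Ednrb NCC null (adjusted p = 0.596), and with the Actb ratio that of Ednrb null was 0.40 (adjusted p = 0.665).

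The remaining 22 were not called. Lrig1 differed from wild type by 0.30 for Ednrb null and 0.23 for Ednrb NCC null (limma adjusted p = 0.246 and 0.422), and Prkcq, a protein kinase C gene used as a marker of these cells, by 0.17 and 0.19 (adjusted p = 0.499 and 0.447). Gja1 and Gjc1, gap junction genes, differed by -0.15 and 0.09 in Ednrb null (adjusted p = 0.533 and 0.744) and by -0.26 and -0.11 in Ednrb NCC null (adjusted p = 0.215 and 0.697). Ryr3, a calcium release channel, had the lowest values of the list, at -0.55 and -0.64 (adjusted p = 0.273 and 0.197).

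**Figure D5:**
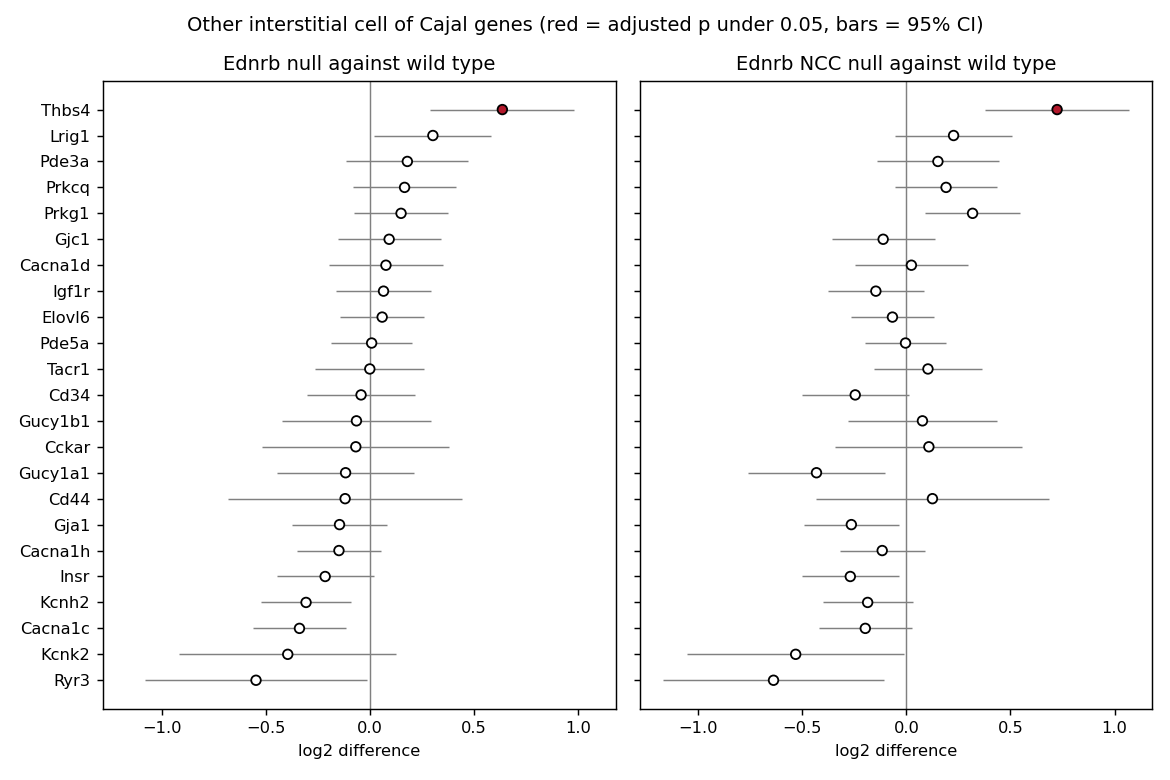
Log2 differences of the brightest probe set of 23 other genes reported in interstitial cells of Cajal (points, red where the adjusted p is under 0.05) with 95% confidence intervals (lines), with Ednrb null against wild type on the left and Ednrb NCC null on the right. Thbs4 is the single red point in each panel, and the other genes lie on both sides of 0.

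Downstream of the receptor, none of 32 measured genes of the KIT signalling pathway (of 40 listed) was called in any comparison. In each comparison 3 of the 32 had an unadjusted p under 0.05 (limma), a limit met by 17.3%, 17.0% and 17.3% of all probe sets. The medians of the 32 were -0.03 for Ednrb null and -0.07 for Ednrb NCC null relative to wild type, and 0.06 between the mutants. Gab2, an adaptor on KIT, differed from wild type by -0.35 in Ednrb null (limma adjusted p = 0.0953), and Sh2b2, another adaptor, by -0.48 in Ednrb NCC null (adjusted p = 0.062). By the brightest probe set, 4.79% of all genes were called in Ednrb null against wild type and 3.90% in Ednrb NCC null. Of 14 genes of ERK feedback and the PEA3 group, 2 were called lower in each mutant against wild type and none higher. They were Dusp4, an ERK phosphatase, at -0.71 (adjusted p = 0.00363) and Ccnd1, cyclin D1, at -0.61 (adjusted p = 0.00832) in Ednrb null, and Ccnd1 at -0.67 (adjusted p = 0.00797) and Egr1, an immediate early factor, at -0.70 (adjusted p = 0.0121) in Ednrb NCC null. The other 2 Ccnd1 probe sets, 1417419_at and 1417420_at, were not called in Ednrb null (-0.38 and -0.24, adjusted p = 0.227 and 0.173) and were called lower in Ednrb NCC null (-0.84 and -0.51, adjusted p = 0.0149 and 0.0105). Dusp4 was also called lower in Ednrb null against Ednrb NCC null (-0.58, adjusted p = 0.0152). The close relatives of Etv1 were not called: Etv4 differed from wild type by 0.02 and Etv5 by 0.16 in Ednrb null, and by -0.14 and -0.05 in Ednrb NCC null.

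Among relatives of the channel, 1 of 6 measured anoctamins was called, Ano9, at 0.75 in Ednrb NCC null against wild type (limma adjusted p = 0.00535) and -0.54 in Ednrb null against Ednrb NCC null (adjusted p = 0.0247). Over all genes, 4.79% were called in Ednrb null against wild type, 3.90% in Ednrb NCC null and 5.29% between the mutants. Of 10 measured receptors and ligands of KIT's own class, 1 was called, the ligand gene Pdgfd, by probe set 1456532_at. It fell by 1.45 in Ednrb null (adjusted p = 0.00174) and by 1.11 in Ednrb NCC null (adjusted p = 0.0135) against wild type, while its other 2 probe sets were below the first quartile of intensity. Pdgfra, the receptor that marks fibroblast-like cells lying beside interstitial cells of Cajal, differed by 0.02 in Ednrb null on its brightest probe set (adjusted p = 0.95). Of its dimmer probe sets, 1421916_at rose by 0.53 (adjusted p = 0.00211) and 1438946_at differed by 0.07 (adjusted p = 0.835). In Ednrb NCC null the same probe sets differed from wild type by -0.31, 0.04 and 0.03 (limma adjusted p = 0.13, 0.859 and 0.934).

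Other cells that use KIT could add to its signal, so their markers were read on the same arrays. None of 12 mast cell, 9 melanocyte, 8 germ cell or 8 blood progenitor genes was called in any comparison, against 3.90% to 5.29% of all genes. Mean log2 levels were 5.60 to 5.87 in Ednrb null arrays, 5.78 to 5.97 in Ednrb NCC null arrays and 5.51 to 6.23 in wild type arrays for the mast cell list, and 5.59 to 5.80, 5.60 to 5.70 and 5.57 to 5.79 in the same groups for the melanocyte list. Of these lists, 4 of 12, 3 of 9, 6 of 8 and 1 of 8 genes were below the first quartile of intensity, 5.17. The melanocyte enzyme gene Tyr was among the dim ones, at 3.76 to 4.14 on all arrays. The mast cell protease gene Cpa3 was highest on wild type 1D and lowest on wild type 1C (7.63 and 4.87), and its differences from wild type were -0.15 for Ednrb null and -0.01 for Ednrb NCC null (adjusted p = 0.926 and 0.996).

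Neighbouring cell types differed between the groups as follows, where over all genes 4.79% were called in Ednrb null against wild type, 3.90% in Ednrb NCC null and 5.29% between the mutants. Of 16 crest, neuron and glia genes, 7 were called lower in Ednrb null arrays and 6 in Ednrb NCC null arrays, each against wild type, and none higher. The medians of the 16 were -0.66 and -0.53, with 2 and 4 genes above 0. Ret, the GDNF receptor of enteric neural crest, had the lowest value of the list in both, at -3.23 and -3.31 (limma adjusted p = 0.000371 and 0.000737). Between the mutants, 2 of the 16 were called lower in Ednrb null. Of 13 smooth muscle genes, Cnn1, calponin, was called lower in Ednrb null against wild type (-0.51, adjusted p = 0.0497) and none was called in Ednrb NCC null. Between the mutants, Cnn1 (-1.01, adjusted p = 0.00226) and Tagln, transgelin (-0.92, adjusted p = 0.0096), were lower in Ednrb null, whose smooth muscle level was 10.74 to 11.01, against 11.10 to 11.37 in Ednrb NCC null and 10.92 to 11.11 in wild type. The 11 genes of fibroblast-like cells gave 0 calls in Ednrb null against wild type and 2, Foxf2 and Bmp4, both lower, in Ednrb NCC null. Between the mutants, the transcription factor gene Foxf2 (0.76, adjusted p = 0.0267) and the signal gene Bmp4 (0.61, adjusted p = 0.00346) were higher and Adamdec1, a metalloprotease gene, was lower in Ednrb null (-1.45, adjusted p = 0.0163). Of 10 epithelial genes, the homeobox gene Cdx1 was called lower in Ednrb null against wild type (-1.21, adjusted p = 0.0065), and Vil1, villin, and the keratin gene Krt8 were called higher in Ednrb NCC null (0.99 and 0.45, adjusted p = 0.0278 and 0.0385). Between the mutants 6 of the 10 were lower in Ednrb null, led by Cdx1 (-1.81, adjusted p = 0.00106) and Vil1 (-1.21, adjusted p = 0.00912). Of 10 striated muscle genes, 1 was called lower in Ednrb null against wild type, the troponin gene Tnnt2 (-1.26, adjusted p = 0.00538), and none in Ednrb NCC null, and 3 were lower in Ednrb null between the mutants, namely Actc1 (-1.95), Tnnt1 (-0.98) and Tnnt2 (-1.48). The hindgut list gave Hoxd12, higher in Ednrb null than in wild type (0.56, adjusted p = 0.047), no call in Ednrb NCC null, and Hoxd12 and Hoxd11 higher in Ednrb null between the mutants (0.57 and 0.53, adjusted p = 0.0467 and 0.0108). Mean log2 levels were 10.00 to 10.44 in Ednrb null arrays, 10.75 to 11.06 in Ednrb NCC null arrays and 10.38 to 10.54 in wild type arrays for the epithelial list, and 6.17 to 6.52, 6.84 to 7.14 and 6.29 to 7.23 in the same groups for striated muscle. None of 5 skin and nerve genes was called, but the wild type arrays were far apart on them. Their mean log2 level was 8.18 to 9.28 in Ednrb null arrays, 8.53 to 9.10 in Ednrb NCC null arrays and 8.07 to 9.92 in wild type arrays. The keratin gene Krt5 read 10.68 and 10.81 on wild type 1B and 1D, against 7.76 on wild type 1C. Krt14 read 9.64 and 10.47 on wild type 1B and 1D, against 6.81 on wild type 1C. Wild type 1B and 1D were also the wild type arrays lowest in Kit and Ano1. The part of any of these cell types in the values of Kit, Ano1 and Etv1/Gm5454 was not tested.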

How the data were processed

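RNA of 9 samples was labelled from 150 ng of total RNA, per the labels, and hybridised to Affymetrix MOE430 version 2 arrays. The authors deposited RMA intensity values, as the submitters' processing notes name them, with 1 value per probe set on each array and on a linear scale (5.69 to 61637). RMA corrects background, equalises the arrays' distributions and combines probes, which narrows differences of dim probe sets; its version is not given in the sources used here. Values were converted to log2 without a pseudocount. Of the non-control probe sets, 34945 name 1 gene, 932 several and 9160 none, and 64 array controls were left out. Group means were fitted to all 9 arrays using limma 3.58.1 in R 4.3.3 (lmFit and eBayes, no trend, not robust), 2-sided, with Benjamini-Hochberg adjustment over 45037 probe sets and calls at an adjusted p under 0.05. The spread rests on 10.8 degrees of freedom. Permuting 3 against 3 arrays cannot give a p under 0.1, so single genes rest on the fit. Each gene of a list is read by its brightest probe set that names it alone, and its adjusted p is that of the fit over all probe sets. Correlations used exact permutation tests over the 9 arrays, in Python 3.11.15.

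The members and gene lists were chosen with earlier results of these data known. The plan was to name genes called in a comparison from each list, at most 4 by smallest p. Where none was called, up to 3 defining members were to be named. This plan was not followed in full. Of the called crest genes, Ret alone is named, and of the 6 epithelial genes called between the mutants, Cdx1 and Vil1 alone are named there. A mesothelial gene called lower in Ednrb null between the mutants is not named. Lrig1, Prkcq, Gja1, Gjc1, Ryr3, Gab2, Sh2b2, Etv4, Etv5 and Pdgfra, each from a list with a call or beyond that plan, were named after values were seen. Both comparisons with wild type share the same 3 wild type arrays. RefSeq tables of GRCm38.p6 gave sequences, positions and names; 0 symbols were updated. The model was tested on simulated data. Alternatives were other normalizations, filters, variance models, array weights, gene summaries, covariates, thresholds, an added constant of 16 and leaving out each array. Precision is set by the number of arrays, since intensities carry no count depth.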

Additional observations from a re-analysis of the deposited data

How the results depend on the processing

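Under 22 alternatives, 9 of them leaving out 1 array, the counts of calls and the differences of the brightest Kit, Kitl, Ano1, Etv1/Gm5454 and Thbs4 probe sets were recomputed, while correlations, dimmer probe sets and the other genes were not. No paired analysis was possible because the groups share no replicate numbers. Kit, Ano1 and Etv1/Gm5454 stayed above wild type in both mutants under every alternative run, except Ano1 in Ednrb NCC null with the mesothelial level as a covariate (-0.0944). Several alternatives could not turn a sign, because they left the difference itself unchanged. These were the filter of dim probe sets, the other variance model, the threshold of 0.1 and the brightest probe set per gene. So were fitting only the groups compared and leaving out an array of the group not compared. In Ednrb null against wild type, 2 of the 8 member probe sets were called with array weights, where 2923 of all 45037 were (6.49%), 2 at an adjusted p under 0.1 (3362 of all, 7.46%) and 0 to 3 with an array left out. Kit was called there with array weights (0.6387), at a threshold of 0.1 (0.5536) and without wild type 1C, its range without single arrays being 0.4225 to 0.7085. For Ano1 that range was 0.2406 to 0.5125. Etv1/Gm5454 in Ednrb NCC null against wild type (0.5425) was called at a threshold of 0.1. No value exists for Etv1/Gm5454 under the brightest probe set per gene or the mean of all probe sets, which use probe sets naming 1 gene.

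Thbs4 lost its calls with only the groups compared (adjusted p = 0.114 for Ednrb null and 0.0558 for Ednrb NCC null) and with the Y-linked covariate (0.0612 and 0.0813), and its call in Ednrb null with the added 16 (0.0542).

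Small differences turned sign. In Ednrb null against Ednrb NCC null, Etv1/Gm5454 was 0.00707 with array weights, 0.04116 with the mesothelial covariate and -0.207 to 0.03649 without single arrays, Kit was -0.01933 to 0.2253 without single arrays, and Thbs4 was 0.009158 with array weights and 0.0509 with the mesothelial covariate. Kitl in Ednrb NCC null against wild type was -0.0261 with the mean of its probe sets and -0.02247 to 0.1668 without single arrays.

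The calls over all probe sets moved more. In Ednrb null against wild type they numbered 917 with the brightest probe set per gene, 982 with the mean of probe sets, 539 with the Actb covariate, 1033 with the mesothelial covariate and 1330 to 2358 without single arrays. In Ednrb NCC null against wild type they were 1042 with only the groups compared, 902 and 932 with 1 value per gene (brightest and mean), 831 with the Y-linked covariate, 233 with the mesothelial covariate, 2871 at a threshold of 0.1 and 716 to 1971 without single arrays. In Ednrb null against Ednrb NCC null they were 3709 with array weights, 1187 and 1216 with 1 value per gene, 283 with the Actb covariate, 981 with the Y-linked covariate, 3164 at 0.1 and 866 to 2061 without single arrays. Beyond the fewer genes or samples tested in some of these, the cause was not tested. Dim probe sets, such as 1415854_at of Kitl, carry little signal over background.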
